A study of Homo sapiens with 6 samples.

Results

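The mRNA levels of 5 DNA mismatch repair genes, MSH6, MSH3, PMS2, PMS1 and MLH3, were followed in HCT116 cells with and without oxaliplatin. They were picked by symbol from the 27942 gene rows of a count table. The rule itself used no measured value, but the set was chosen with earlier results of these data known. All 5 passed the filter on low counts, as did 13727 genes of the whole table, and other genes of mismatch repair are not analysed here beyond the lists given further on. The study asked how oxaliplatin, a platinum compound that forms adducts and crosslinks on DNA, acts on colon cancer cells. RNA was sequenced from 3 libraries of untreated cells (NT) and 3 libraries of cells exposed to 0.5 µM oxaliplatin for 24 h (OXA). HCT116 is an established human colorectal carcinoma line with unstable microsatellites, so every library came from a single line that is itself impaired in mismatch repair. Read counts measure the amount of a transcript and do not show whether it carries a frameshift. The labels do not say that the replicates were separate cultures, and the p-values therefore measure the spread between these libraries, which may be technical.

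Mismatch repair removes base mismatches and small loops that escape proofreading by the DNA polymerases. MSH6 and MSH3 are alternative subunits of the MutS dimers that recognise the error: the dimer with MSH6 binds single mismatches and short loops, and the dimer with MSH3 binds larger loops. PMS2, PMS1 and MLH3 are alternative subunits of the MutL dimers that act next. The dimer with PMS2 nicks the new strand in most repair, MLH3 is best known for meiotic crossovers, and the role of PMS1 is less clear. The strand is then removed by the exonuclease EXO1 and resynthesised by polymerase delta with its clamp. The pathway also recognises some platinum adducts, though recognition of oxaliplatin adducts was not tested here. Mismatch repair is best known in the colon for the microsatellite instability that follows its loss.

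Library totals lay between 32979521 and 40967880 counts. NT library 1 stood apart from the other NT libraries, with a chi-square per gene of 83.6 and 76.1 against NT libraries 2 and 3, where all other pairs within a group lay between 19.3 and 29.6. Fold changes and shares of the 5 genes are therefore also given without it. CDKN1A, a target of p53 that rises after DNA damage, had 4235, 5143 and 6049.6 normalized counts in NT and 40181, 41316 and 35832 in OXA, so every library fitted its treatment label (log2 fold change, log2FC, 2.93 with a standard error, SE, of 0.15, edgeR adjusted p = 0.000445). The 6 epithelial markers CDH1, KRT8, KRT18, KRT19, VIL1 and CDX2 summed to between 1869 and 2882 CPM (counts of a gene scaled to a common library total) in NT and between 3127 and 3897 in OXA. None of the 6 passed the edgeR test, while 3 were higher at an unadjusted p under 0.05, and DESeq2 called KRT19 higher. A fit that takes the replicate number as a block called CDH1 lower and KRT8, KRT18 and KRT19 higher in OXA. The part of this shift in the results below was not tested. Of 5 markers of blood, fibroblast and endothelial cells, DCN had no count in any library, PTPRC had at most 2, and the 5 together made up between 3.21 and 8.23 CPM. Most of this sum was the fibroblast marker COL1A1, with 107 to 273 raw counts per library (log2FC 0.30 ± 0.37 SE), and it did not pass the edgeR test.

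MSH6 was the 1 member of 5 that fell past the threshold in OXA, against 2.29% of all 13727 tested genes that were lower and 2.78% that were higher at an edgeR adjusted p under 0.05. None of the 5 was called higher by edgeR or DESeq2. At an unadjusted p under 0.05, 2 of the 5 (MSH6 and PMS1) were lower and 0 higher, beside 11.1% and 10.7% of all tested genes. DESeq2 called 4.41% of the 13121 genes to which it gave an adjusted p lower and 4.64% higher. MSH3 and PMS1 had lower means in OXA, and PMS2 and MLH3 had higher means, but these 4 missed the threshold. The median log2 fold change of the 5 was -0.39, beside 0.023 over all tested genes. With the replicate number as a block, 2 of the 5 (MSH6 and PMS1) were called lower and 0 higher, and the same fit called 10.9% of all tested genes lower and 12.1% higher.

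**Figure D1:**
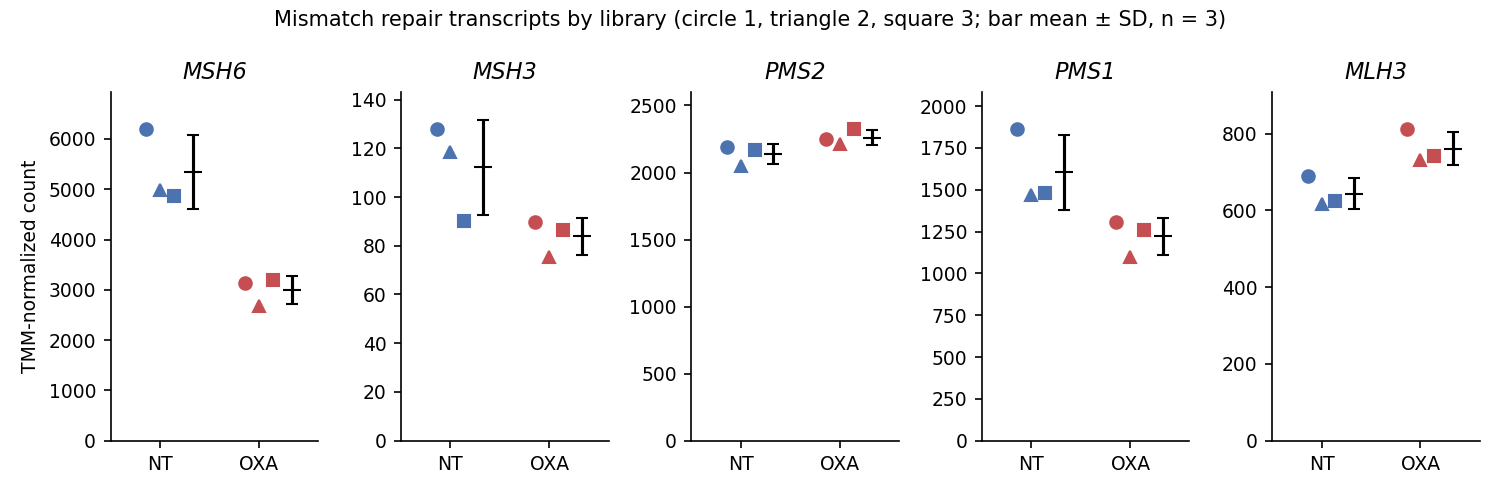
Normalized counts (y axes, linear and from 0, one scale per gene) of the 5 genes in each NT (blue) and OXA (red) library, with the replicate number as the symbol and the mean ± SD (n = 3) as a black bar. The OXA libraries of MSH6 lie between 2672 and 3192, all below the lowest NT library at 4871, while in MSH3 the lowest NT value of 90.3 is next to the highest OXA value of 89.8.

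The annotated MSH6 gene spans chr2:47695530-47810063 (plus strand, GRCh38). Its canonical transcript starts inside that span, at position 47783145, and has 10 exons and 4265 bases, of which 4080 code for protein. MSH6 held 6191, 4976 and 4871 normalized counts (counts scaled to a common library size by TMM factors) in NT libraries 1 to 3. In OXA libraries 1 to 3 it held 3128, 2672 and 3192. The groups did not overlap, and the highest OXA library stood well below the lowest NT library. The means were 5346 ± 733 and 2997 ± 283 (SD, n = 3), so that MSH6 decreased by 43.9% (log2FC -0.83 ± 0.12 SE, 95% interval -1.12 to -0.55, edgeR adjusted p = 0.0127). In same-numbered pairs of libraries the log2 ratio of OXA to NT was -0.98, -0.90 and -0.61. Without NT library 1 the log2FC was -0.72 (edgeR adjusted p = 0.00375). Leaving out OXA library 1, 2 or 3 kept the direction, but the call was lost, with edgeR adjusted p of 0.0737, 0.0673 and 0.0518. Over all genes these fits called 85, 126 and 169, against 696 with every library. In these bulk libraries, fewer cells that express a gene and less RNA per cell cannot be told apart.

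The promoter window of MSH6, 250 bases before to 50 bases after the start of its canonical transcript, is shown in part because it holds a match to a core motif of the E2F factors, which regulate genes of S phase. RefSeq gave 4 windows for MSH6, and the one at this start was used. TTTCCCGC, in capitals in the sequence, lies 4 to 11 bases after the start and occurs on either strand in 1.63% of the 35116 windows of this length in RefSeq. The stretch is chr2:47783025-47783174, plus strand, GRCh38.p14.
MSH6 promoter: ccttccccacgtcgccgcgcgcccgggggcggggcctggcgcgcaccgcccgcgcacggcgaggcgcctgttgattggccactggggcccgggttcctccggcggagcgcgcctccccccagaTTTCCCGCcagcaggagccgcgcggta
The window also held 5 matches to the GC box (GGGCGG, in 45% of windows) and 1 to the CCAAT box (34.6%). A match describes the letters of the reference and is no evidence of binding. FBXO11, on the opposite strand, overlaps the MSH6 locus and had 3299.6 ± 436 and 3029.5 ± 265 normalized counts (log2FC -0.12 ± 0.12 SE, edgeR adjusted p = 0.609). The strand setting of the counting is not given in the sources used here, so reads from overlapping genes on opposite strands may not have been told apart.

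MSH3, the alternative partner in MutS, was scarce. The gene spans chr5:80654652-80876815 on the plus strand, with 24 exons and a canonical transcript of 4443 bases. It held 128, 118 and 90.3 normalized counts in NT and 89.8, 75.2 and 86.4 in OXA. Every OXA library was below every NT library, by a margin of less than 1 count between the nearest of them. The means were 112 ± 19.5 and 83.8 ± 7.63 (SD, n = 3; log2FC -0.42 ± 0.20 SE, 95% interval -0.88 to 0.047, edgeR adjusted p = 0.278). The interval includes no change as well as a fall as large as that of MSH6. Its counts were low enough for counting error alone to give a coefficient of variation of 9.42% in NT and 11.0% in OXA, beside 17.4% and 9.10% measured between libraries. Without NT library 1 the log2FC was -0.31 (edgeR adjusted p = 0.420).

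The promoter window of MSH3 held the other E2F core searched, TTTGGCGC, which lies 107 to 100 bases before the MSH3 start and occurs in 0.652% of RefSeq windows. It also held 4 GC boxes and no CCAAT box. Whether reads of overlapping transcripts entered the low MSH3 count was not tested.

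PMS2, on the minus strand of chromosome 7 (chr7:5970925-6009130, 15 exons, transcript of 5093 bases), had the lowest coefficient of variation between libraries of the 5 genes (3.53% in NT and 2.51% in OXA). Its normalized counts were 2188, 2049 and 2171 in NT and 2250.5, 2210.1 and 2322 in OXA. All OXA libraries were higher than all NT libraries, by a small margin. The means of 2136 ± 75.5 and 2261 ± 56.7 (SD, n = 3) gave a log2FC of 0.08 (SE 0.082, 95% interval -0.11 to 0.27, edgeR adjusted p = 0.620). The interval leaves room for a rise of up to 0.27 or a fall of up to 0.11 on the log2 scale, and excludes a fall of the size of MSH6. Without NT library 1 the value was 0.10 (edgeR adjusted p = 0.529). With the authors' own gene-specific factors as offsets, the sign turned, to -0.00597. PMS2 has near-identical pseudogene copies, so its count depends on how shared reads were assigned and is uncertain. AIMP2, whose start lies 125 bases from that of PMS2 on the other strand, encodes a scaffold of the tRNA synthetase complex. Its log2FC was 0.17 (SE 0.14, edgeR adjusted p = 0.551).

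PMS1 lies on the plus strand of chromosome 2 (chr2:189784085-189877629, 13 exons, transcript of 3156 bases). It held 1860.5, 1471 and 1479 normalized counts in NT, and 1307, 1096 and 1259 in OXA. No OXA library reached the lowest NT library, and NT library 1 was the highest of all. The means were 1603 ± 223 and 1221 ± 111 (SD, n = 3; log2FC -0.39 ± 0.13 SE, 95% interval -0.69 to -0.092). PMS1 missed the threshold in the fit without a block (edgeR adjusted p = 0.130) and passed it when the replicate number entered as a block (log2FC -0.39, edgeR adjusted p = 0.0205). The ratios within same-numbered pairs were -0.51, -0.42 and -0.23 on the log2 scale. Without NT library 1 the log2FC was -0.27 (edgeR adjusted p = 0.149). The authors' gene-specific factors without a block gave -0.27 (edgeR adjusted p = 0.458), and the block and those factors together gave -0.28 (edgeR adjusted p = 0.0646). In the deposited normalized values the groups overlapped, with OXA library 1 at 1593 above NT libraries 2 and 3 at 1462 and 1397. ORMDL1, a regulator of sphingolipid synthesis that starts 279 bases away on the opposite strand and overlaps PMS1, had a log2FC of -0.18 (SE 0.12, edgeR adjusted p = 0.454).

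MLH3 lies on the minus strand of chromosome 14 (chr14:75013769-75051532, 13 exons, transcript of 7820 bases). Its normalized counts were 690.0, 617 and 625 in NT and 811, 732 and 741 in OXA. Every OXA library was higher than every NT library, and the 3 same-numbered pairs differed by nearly the same log2 ratio, 0.23, 0.25 and 0.25. The means were 644 ± 39.9 and 761 ± 43.6 (SD, n = 3; log2FC 0.24 ± 0.11 SE, 95% interval -0.010 to 0.49, edgeR adjusted p = 0.249). The replicate block gave an edgeR adjusted p of 0.0601, still over the threshold. Leaving out NT library 1 gave 0.29 (edgeR adjusted p = 0.125). The authors' gene-specific factors lowered the log2 fold change of MLH3 to 0.083, and they multiplied its count by 1.31 in NT library 2 and by 0.887 to 1.08 in the other libraries. The promoter windows of PMS2 and PMS1 held 2 and 1 GC boxes and 3 and 2 CCAAT boxes, and that of MLH3 held neither. No E2F core was found in these 3 windows, and the CHR element TTTGAA, present in 15.2% of all windows, was in none of the 5.

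Taking the 5 genes side by side, 3 had every OXA library below every NT library, against 14.4% of all tested genes, and 2 had every OXA library above, against 14.5%. This separation holds for the TMM-normalized counts. In the deposited normalized values, MSH6 and MSH3 stayed separate, while the groups overlapped for PMS1, PMS2 and MLH3. Over the 6 libraries, log2 counts of MSH6 correlated with those of PMS1 (Pearson r = 0.95) and MSH3 (r = 0.89), and those of PMS2 with MLH3 (r = 0.78). MSH6 and MLH3 ran in opposite directions (r = -0.70). These values describe 6 shared libraries in which the group difference is itself part of the correlation. Among 12066 genes with a mean of at least 50 normalized counts, the profiles closest to MSH6 were those of ATAD2, DTL and MCM10 (r of 0.9998, 0.9990 and 0.9988), with log2FC values of -0.87, -0.97 and -0.75. For PMS1 they were SEPT10, KIF20A and ZNF638 (r of 0.9995, 0.9992 and 0.9988), and for MLH3 ZNF41, CD55 and GEMIN5 (r of 0.998, 0.997 and 0.995). The closest to MSH3 were SMARCA2, SNX18 and PCBP2 (r of 0.993, 0.993 and 0.988), and to PMS2 ATP6V1A, ELP2 and EMC4 (r of 0.990, 0.987 and 0.987).

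Levels were compared between genes as normalized counts per kilobase of the canonical transcript. In NT the order was MSH6 (1253 ± 172), PMS1 (508 ± 70.5), PMS2 (419 ± 14.8), MLH3 (82.4 ± 5.10) and MSH3 (25.3 ± 4.39). No neighbours in this order overlapped, the lowest PMS1 library standing at 466 and the highest PMS2 library at 430. In OXA, PMS2 (444 ± 11.1) stood above PMS1 (387 ± 35.1), again with no overlap, after MSH6 (703 ± 66.4) and before MLH3 (97.4 ± 5.57) and MSH3 (18.9 ± 1.72). The order of PMS1 and PMS2 depended on the length used. Per kilobase of coding sequence, a choice made after the data had been seen, PMS2 led PMS1 in NT (826 ± 29.2 against 573 ± 79.6) and in OXA (874 ± 21.9 against 437 ± 39.6). By normalized count in NT, MSH6 stood at the 90.1st percentile of tested genes and MSH3 at the 18.4th.

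MSH6 and MSH3 compete for the same partner, so the balance between them was compared as well. Of the length-scaled counts of both, MSH6 made up 98.1%, 97.8% and 98.3% in NT and 97.3%, 97.4% and 97.5% in OXA. The share was lower in all 3 OXA libraries than in any NT library, and its mean dropped by 0.640 percentage points. It dropped by 0.624 points without NT library 1. With the deposited normalized values in place of raw counts it dropped by 0.521 points, with an exact permutation p of 0.2. Put as a ratio, MSH6 exceeded MSH3 by 50.5, 43.8 and 56.2 times in NT and by 36.3, 37.0 and 38.5 times in OXA (50.1 ± 6.22 against 37.3 ± 1.11). The ratio fell short of every NT value in each OXA library, with a difference of -0.42 on the log2 scale (exact permutation test, two-sided, p = 0.1). That is the smallest p that 3 libraries against 3 can give, so no such comparison could pass 0.05. Both the share and the ratio rest on the low counts of MSH3, between 69 and 125 raw counts per library. Their counting error alone, a coefficient of variation of 9.42% in NT and 11.0% in OXA, enters both measures.

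The 3 MutL subunits were compared in the same way, as shares of their summed length-scaled counts. PMS1 took 53.2%, 49.2% and 48.1% in NT and 43.1%, 39.7% and 42.0% in OXA. PMS2 took 38.8%, 42.5% and 43.7% in NT and 46.0%, 49.6% and 48.0% in OXA. MLH3 took 7.97%, 8.33% and 8.20% in NT and 10.8%, 10.7% and 9.98% in OXA. The share of PMS1 thus dropped by 8.55 percentage points, while PMS2 gained 6.22 and MLH3 gained 2.33. None of the 3 shares overlapped between the groups, and each had an exact permutation p = 0.1, the smallest possible. Benjamini-Hochberg adjustment over the 5 exact permutation tests of shares and ratio left p = 0.1 for each. Shares that sum to a whole do not vary independently. Without NT library 1 the shifts of PMS1, PMS2 and MLH3 were -7.02, 4.79 and 2.23 percentage points. With the deposited normalized values they shrank to -4.91, 3.61 and 1.298 percentage points, with exact permutation p of 0.2, 0.2 and 0.3. With coding length in place of transcript length, a choice made after the data had been seen, they were -7.61, 5.40 and 2.21 points. Which of PMS1 and PMS2 held the larger share depended on the length, since PMS2 led in both groups per kilobase of coding sequence. The uncertainty of the PMS2 count from its pseudogene copies also enters these shares.

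**Figure D2:**
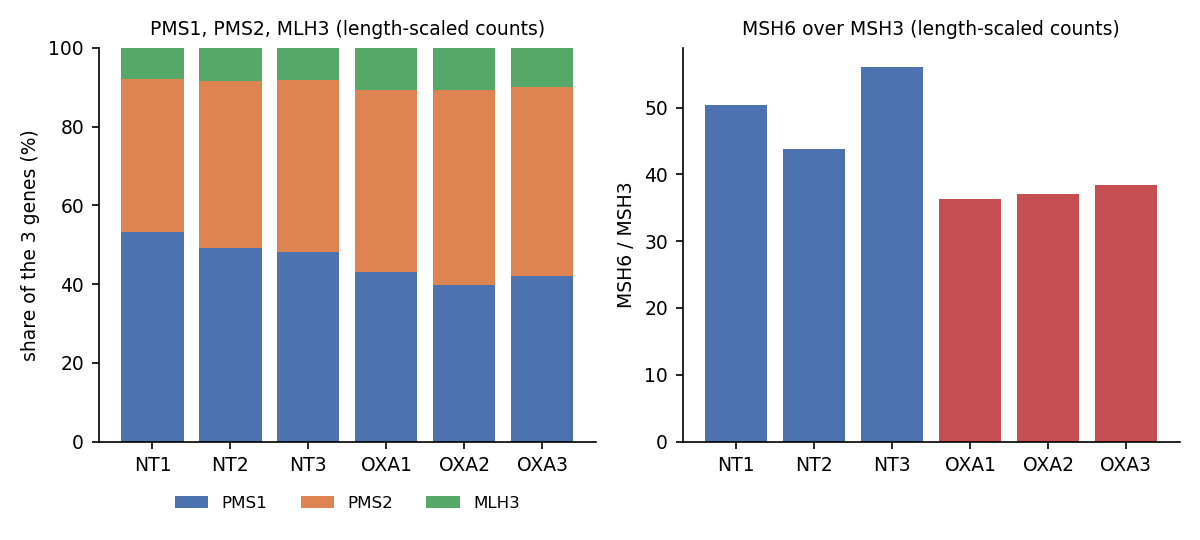
Left, shares (%) of PMS1, PMS2 and MLH3 in their summed length-scaled counts, stacked to 100 for each library. Right, the ratio of MSH6 to MSH3 length-scaled counts in NT (blue) and OXA (red). PMS1 holds 48.1% to 53.2% in NT and 39.7% to 43.1% in OXA, and the ratio lies at 43.8 or above in NT and at 38.5 or below in OXA.

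Of 16 listed genes for excision and resynthesis, 6 fell at an edgeR adjusted p under 0.05, 0 rose and 10 did not pass, against the 2.29% of all tested genes that fell. DESeq2 called 7 lower and 0 higher, against 4.41% and 4.64% of all genes. At an unadjusted p under 0.05 there were 8 lower and 0 higher, against 11.1% and 10.7%. Their median log2 fold change was -0.37. The list was chosen with earlier results of these data known. The study linked its down-regulated genes to DNA replication and the cell cycle. Whether the falls in this list are particular to mismatch repair was not tested. EXO1, the exonuclease that removes the strand with the error, had 3183, 2488 and 2249.6 normalized counts in NT and 1601, 1376 and 1465 in OXA. The groups were well apart (log2FC -0.83 ± 0.14 SE, edgeR adjusted p = 0.0210). Of the loader of the PCNA clamp, RFC4, RFC5 and RFC2 fell by 0.65, 0.64 and 0.39 on the log2 scale (edgeR adjusted p of 0.0273, 0.0161 and 0.0318). The single-strand binding subunit RPA2 fell by 0.55 (edgeR adjusted p = 0.0217), and the polymerase delta subunit POLD3 fell by 0.65 (edgeR adjusted p = 0.0423).

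Other genes of this list did not pass. PCNA, the clamp itself, had 10081 ± 813 and 9768 ± 629 normalized counts (log2FC -0.05 ± 0.096 SE, edgeR adjusted p = 0.830). RPA1 had a log2FC of -0.15, and RFC1, RFC3, RPA3 and HMGB1 had values of -0.43, -0.53, -0.34 and -0.27. The blocked fit also called these last 4 lower (edgeR adjusted p of 0.00993, 0.00924, 0.0315 and 0.0335), which made 10 of 16, against 10.9% of all tested genes called lower by that fit. LIG1, which seals the nick, stood at 0.017, and POLD2 at 0.21. POLD1, the catalytic subunit of polymerase delta, and POLD4 were low in NT library 1 (373 raw counts against 1080 and 1119 for POLD1, and 43 against 176 and 176 for POLD4), and their log2 fold changes of -0.07 and 0.74 had standard errors of 0.37 and 0.46. Without NT library 1 the list still had 6 genes called lower. The count fell to 3 without NT library 2, to 1 without NT library 3 and to 0 without any 1 of the OXA libraries. Lower calls over all genes changed in these fits too, from 315 with every library. They were 571, 146 and 69 without NT library 1, 2 or 3, and 19, 32 and 67 without OXA library 1, 2 or 3.

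A further list held 9 genes that work beside mismatch repair, of which 8 were tested and none was called by edgeR. At an unadjusted p under 0.05, 3 were lower and 1 higher, against 11.1% and 10.7% of all tested genes. DESeq2 called MCM8 and MCM9 lower, against 4.41% of all genes. MSH4, a MutS homolog of meiosis, had between 3 and 14 raw counts per library and was not tested. MSH5, its partner, had 490.1 ± 56.0 and 368 ± 17.8 normalized counts (log2FC -0.41 ± 0.13 SE, edgeR adjusted p = 0.125). Its locus carries a readthrough transcript, so its count is uncertain. MCM8 and MCM9, a helicase pair of recombination, had log2FC values of -0.57 and -0.52 (edgeR adjusted p of 0.0578 and 0.0655). With the replicate block, MSH5, MCM8 and MCM9 were called lower (edgeR adjusted p of 0.0498, 0.00366 and 0.0101), against 10.9% of all tested genes. SETD2, which writes the histone mark bound by MSH6, had a log2FC of -0.21 (edgeR adjusted p = 0.295), and the nuclease FAN1 one of 0.093 (edgeR adjusted p = 0.671). Of the glycosylases that act on mispaired bases, MUTYH stood at -0.38 and MBD4 at -0.22. TDG stood at 0.39 (edgeR adjusted p = 0.144) and was called higher with the block (edgeR adjusted p = 0.0186), which called 12.1% of all tested genes higher.

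**Figure D3:**
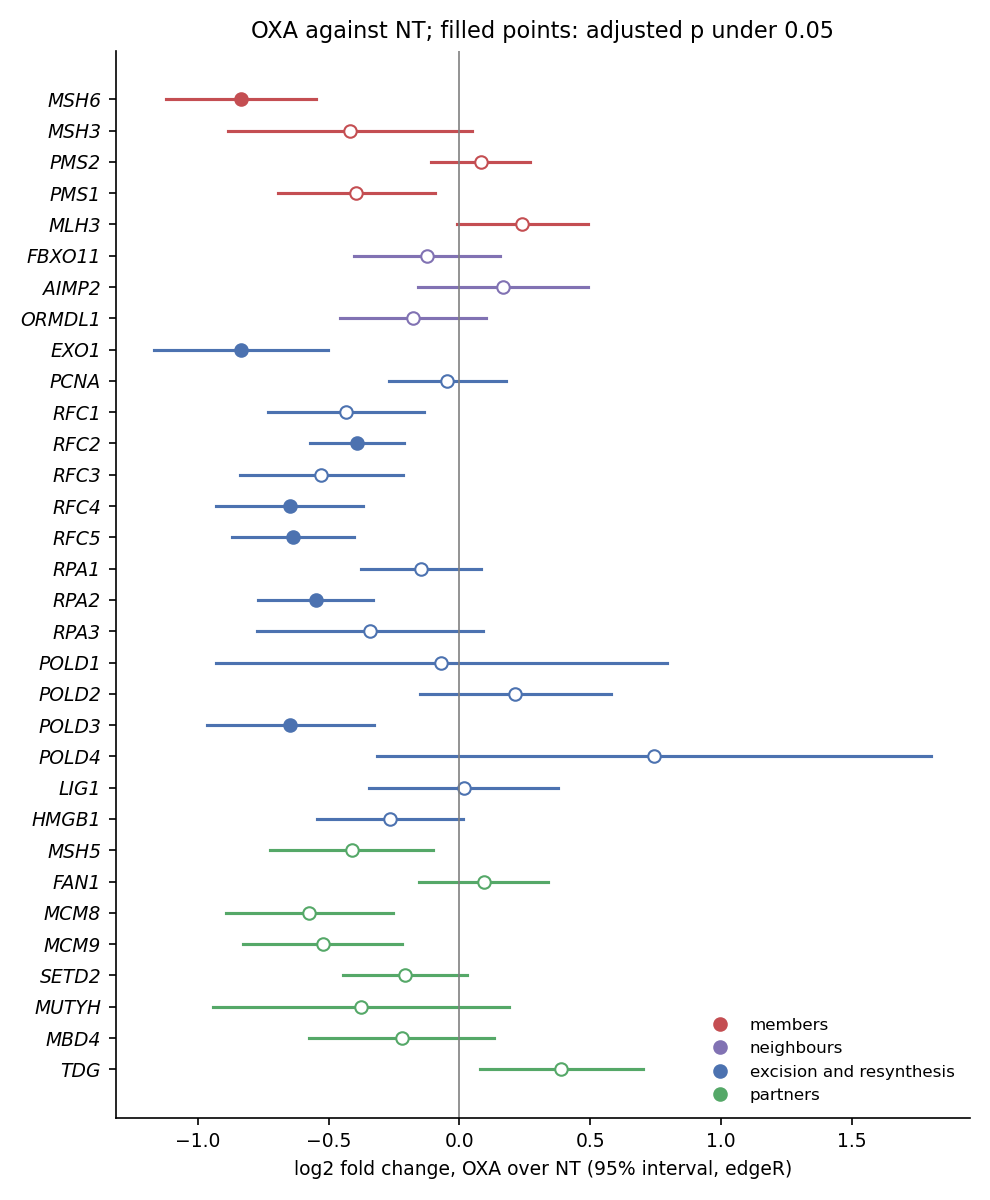
Log2 fold change of OXA over NT (x axis) with its 95% interval from edgeR for the 5 members (red), neighbours of MSH6, PMS2 and PMS1 (purple), the excision and resynthesis list (blue) and the partner list (green). Filled points have an adjusted p under 0.05: MSH6, EXO1, RFC2, RFC4, RFC5, RPA2 and POLD3, all to the left of 0.

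Mismatch repair genes hold mononucleotide runs in their own coding sequence, which are the kind of sequence that slips in cells with unstable microsatellites. The longest run of each gene in the canonical GENCODE transcript is printed with 10 bases on each side, 5′ to 3′ along the transcript, with the run in capitals. These are reference letters on GRCh38, and the state of the runs in HCT116 cannot be read from counts. The runs lie at chr2:47803501-47803508 in MSH6 (exon 5), chr5:80675096-80675103 in MSH3 (exon 7), chr7:5987526-5987533 in PMS2 (exon 11, minus strand), chr2:189818084-189818090 in PMS1 (exon 5) and chr14:75047901-75047909 in MLH3 (exon 2, minus strand).
MSH6: ccggaagataCCCCCCCCttcttagagc
MSH3: tgttagggacAAAAAAAAgggcaacatt
PMS2: actggagaagAAAAAAAAgacgtgtcca
PMS1: actcaactgcAAAAAAAtgtaaagatg
MLH3: agagaaagagAAAAAAAAAgaatctagca
MSH6 has a run of cytosines and the other 4 genes have runs of adenines. The run of 9 bases in MLH3 is matched or exceeded in 1.34% of 20046 coding genes, the runs of 8 bases in MSH6, MSH3 and PMS2 in 5.72%, and the run of 7 bases in PMS1 in 22.6%.

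The fold changes of the 5 genes were recomputed under 14 alternatives. MSH6 lay between -0.93 and -0.72 and was called in 11 of the 14, the exceptions being the fits that left out an OXA library. Those fits called between 85 and 169 genes in all, against 696 with every library. MSH3 (-0.59 to -0.31) and MLH3 (0.083 to 0.29) kept their sign and were called in none. PMS1 (-0.49 to -0.27) kept its sign and was called in 1, the fit with the replicate block. PMS2 lay between -0.00597 and 0.10 and was called in none.

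**Figure D4:**
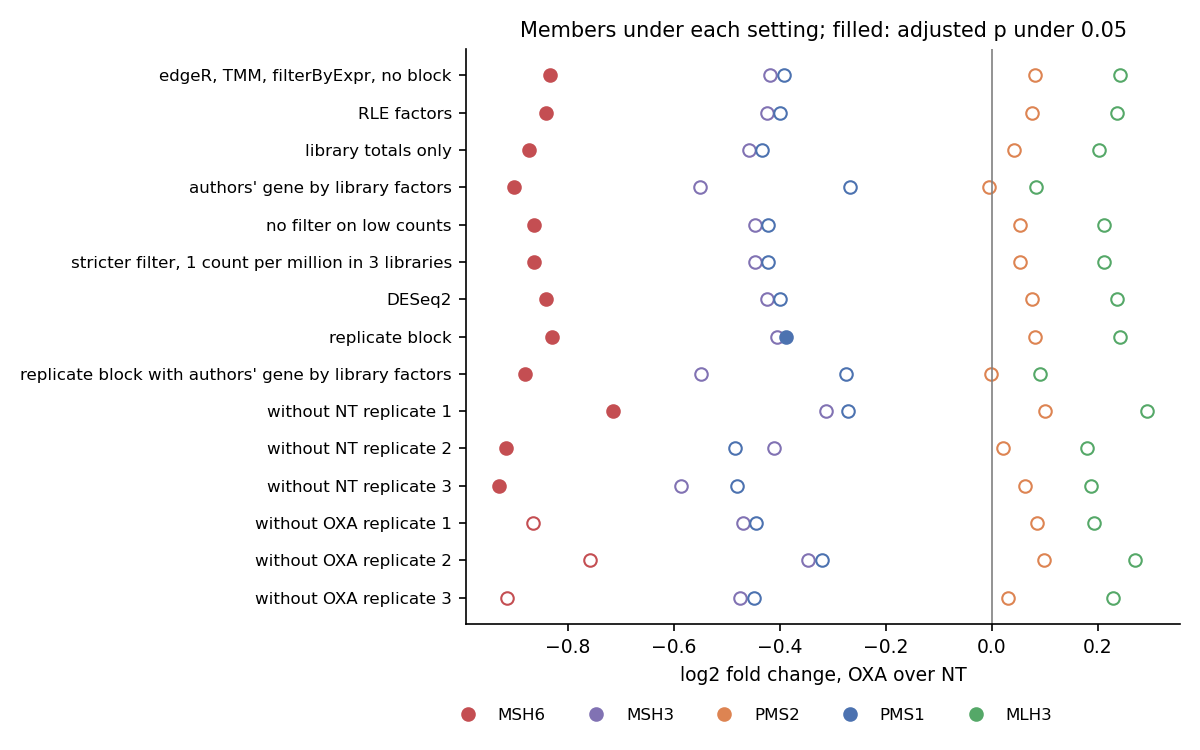
Log2 fold change of OXA over NT (x axis) of the 5 genes (colours) in the reported fit (top row) and in each of 14 alternatives (other rows), with filled points for an adjusted p under 0.05. MSH6 is filled in all rows but the bottom 3, which leave out an OXA library, and PMS1 is filled only with the replicate block.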

How the data were processed

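RNA was sequenced from 6 libraries of HCT116 cells, 3 untreated (NT) and 3 treated with oxaliplatin (OXA), and groups and replicate numbers were taken from the sample labels. The authors deposited for each gene a raw count, in whole numbers, and a normalized signal. The submitters' processing notes name Trimmomatic 0.32, STAR 2.7.5b, RSEM 1.3.3, DESeq2 2.13 and the build GRCh38, without the role of each. If RSEM made the counts, they are rounded estimates. The annotation and strand setting are not given in the sources used here. The deposited signal equals the count times a factor that differs between genes and libraries, and was used only in alternatives.

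Counts were filtered with filterByExpr (minimum count 10, minimum total count 15), normalized by TMM and compared by edgeR's quasi-likelihood test (edgeR 4.0.16, limma 3.58.1, R 4.3.3). Adjusted p-values follow Benjamini and Hochberg across the 13727 tested genes, with a threshold of 0.05. The standard error is the log2 fold change divided by the square root of F. The steps were tested on simulated data. PCR copies could not be told apart, so counting error understates the full error.

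NT and OXA libraries with the same number shifted jointly around their group means (correlation across genes 0.31 to 0.55, beside -0.47 to 0.090 for other pairs). All 3 values were over the limit of 0.1, so the libraries may be paired by number. Deviations from a group mean cancel within the group, so positive values for same-numbered pairs lower those of other pairs. The values of other pairs are therefore no independent contrast. The labels leave the meaning of a number unsaid. Only the blocked fits used this pairing. The main fit, the calls taken from it and the exact permutation tests ignored it. The main fit called 696 genes and the blocked fit 3157. The blocked fit is given where it changes a call.

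Lengths, positions and coding runs came from GENCODE release 44, and promoter windows from RefSeq on GRCh38.p14, in which all 5 genes were matched. Motifs were searched on both strands, and overlapping matches were each counted. Protein sequences were not analysed here. Shares used counts divided by transcript length.

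The genes named are the 5 members, the 2 lists, coding genes in the table that overlap a member or start within 1000 bases of its start (those of MSH3 are not reported here), the 3 most correlated genes of each member, cell type markers and CDKN1A. The members and lists were chosen with earlier results of these data known. The alternatives changed the normalization (RLE, library totals, the authors' factors), the low-count filter, the tool (DESeq2 1.42.0) or the block, or dropped 1 library. Coding length was added after the data had been seen.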

Additional observations from a re-analysis of the deposited data

How the results depend on the processing

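Over all genes, 696 were called (315 lower, 381 higher). The count was 441 with the authors' gene-specific factors, 1187 with DESeq2, 3157 with the replicate block and 2484 with the block and those factors together. Leaving out a library gave between 85 (without OXA library 1) and 1194 (without NT library 1). Library totals alone gave 511 lower and 350 higher calls, and the stricter filter 479 and 363. The direction of the 5 genes under these settings is given with their ranges in the report, and no setting moved the median of all genes by over 0.1.

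PMS2 changed sign with the authors' factors (-0.00597) and with the replicate block and those factors (-0.00233). PMS1 passed the threshold with the replicate block (-0.39), so 2 of the 5 genes were called, and between 0 and 1 when a library was left out. The number was 0 in the fits without an OXA library, which called 85, 126 and 169 genes in all. MSH6 without a library lay between -0.93 and -0.72. The excision and resynthesis list had 10 calls with the replicate block, 10 with the block and the authors' factors, and between 0 and 6 without a library. Lower calls over all genes in the same fits were 1493, 1167 and between 19 and 571. The block changed no other call of a member.

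The shifts in share were -4.91 for PMS1, 3.61 for PMS2 and 1.298 for MLH3 with the deposited normalized values, and 3.25 for MLH3 without division by length. The cause of these changes was not tested. Leaving out a library leaves 2 in its group, assumed to vary like the other 3. Counting error was largest for MSH3, whose libraries held between 69 and 125 raw counts.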
